A study of Mus musculus with 8 samples.

Results

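Tight junctions are the belts of contact that close the gap between neighbouring endothelial cells (ECs), and in brain capillaries they are an essential part of the blood-brain barrier. Claudins and occludin cross the membrane and meet their partners on the next cell, angulin-family receptors and tricellulin seal the corners where 3 cells meet, junctional adhesion molecules help to set up the contact, and zonula occludens and cingulin proteins tie the complex to actin from inside the cell. The 9 tight junction genes described here were taken by name from the 49315 genes of the count files. They are the claudins *Cldn5* and *Cldn12*, the MARVEL-domain genes *Ocln* (occludin) and *Marveld2* (tricellulin), the angulin *Lsr*, the plaque genes *Tjp1* (ZO-1) and *Cgnl1* (paracingulin), and the junctional adhesion molecules *F11r* (JAM-A) and *Jam2* (JAM-B). Each name matched 1 gene identifier, and all 9 passed the filter on low counts.

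The libraries came from CD31-bead-selected brain ECs of 4 Mutant and 4 Wild type pups collected at postnatal day 9, with 1 library per pup and control pups drawn from the litters of the Mutant pups. Mutant pups carried *R26*GT-Map2k1-GFP/+ and *Tg-Cdh5CreER*+/-, so that tamoxifen given to the litters at day 1 switched on MAP2K1 (p.K57N), a constitutively active kinase of the ERK pathway, from the *Rosa* locus under a CAG promoter. The Cre acts in ECs through the *Cdh5* promoter, and both lines were kept on C57BL/6J. A minority of the isolated ECs carried the recombined allele, so each Mutant value averages over recombined and unrecombined cells. Changes in recombined cells and changes in unrecombined cells cannot be told apart. The labels call the controls Wild type and do not say whether any of them carried the Cre or the unrecombined allele alone. No group expressed unmutated MAP2K1 from *Rosa*, so the mutation and the overexpression cannot be told apart.

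The files hold whole-number read counts per gene, with 24833373 to 34196955 reads per library. *Map2k1*, counted from the native gene and the transgene together, had 18734, 12692, 12707 and 14342 normalized counts (scaled to a common library size) in Mutant libraries 1 to 4 and 1506 to 1762 in Wild type libraries (log2 fold change 3.18), so every library matched its label. RNA was measured and protein was not. The EC marker genes were abundant, with a summed level of 12760 to 15077 CPM (counts scaled to a common library size) in Mutant and 12309 to 14965 CPM in Wild type libraries. Of those 11 genes 3 were higher and 4 lower in Mutant ECs, among them *Pecam1* (log2 fold change 0.53), the CD31 gene used for the selection. The summed levels did not overlap between the groups for 4 of the 13 lists of other cell types. The oligodendrocyte list was at 28.0 to 60.7 CPM in Mutant and 94.3 to 276 CPM in Wild type libraries, red blood cell genes at 76.0 to 250 and 464 to 805 CPM, and neuronal genes at 19.4 to 27.0 and 27.9 to 50.9 CPM. The astrocyte list was at 622 to 747 CPM in Mutant and 367 to 436 CPM in Wild type libraries. Of this, *Gja1*, a connexin gene that ECs also express, held 586 to 731 and 331 to 399 CPM. Among the 6 astrocyte genes 1 was called higher (*Gja1*, log2 fold change 0.80) and 1 lower (*Aldh1l1*, -0.96). The median log2 fold change of that list was -0.50. The sums for pericytes, smooth muscle, fibroblasts, microglia and macrophages, choroid plexus epithelium, ependyma, other epithelium, platelets and leukocytes overlapped between the groups. Single genes of these lists still differed. Of the 7 pericyte genes 2 were higher (*Abcc9*, log2 fold change 1.78, and *Kcnj8*, 0.81) and 0 lower, with a list median of 0.10. *Rgs5* (-0.44), *Notch3* (-0.19), *Vtn* (-0.06), *Higd1b* (0.10) and *Pdgfrb* (0.22) were not called. For fibroblasts 2 genes were higher and for smooth muscle 1. Choroid plexus had 1 higher and 2 lower, ependyma 1 higher and 1 lower, and other epithelium and platelets 1 lower each. Overlapping sums thus do not show an equal content of these cells. The part of these cells in the results below was not tested, and in bulk RNA fewer cells of a type and less RNA per cell cannot be told apart.

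The sequences shown first are the promoter windows of 5 of the members, among them the gene with an antisense partner. The others are the most abundant member, both members that were higher in Mutant ECs, and the chromosomal neighbour of 1 of these. Each runs from 250 bases before to 50 bases after a RefSeq transcription start site on GRCm38.p6 and is printed 5′ to 3′ on the gene's own strand. Capitals mark matches, on either strand, to TGANTCA (the AP-1 motif of Fos and Jun dimers), CCGGAAG (ETS factors), CACCTG (the E-box bound by Snail-type factors) or CTTTGAT (TCF/LEF factors). *Cldn5* is at chr16:18776597-18776896 (plus strand), *Ocln* at chr13:100552669-100552968 (minus strand), *Marveld2* at chr13:100616922-100617221 (minus strand), *Lsr* at chr7:30973420-30973719 (minus strand) and *F11r* at chr1:171437311-171437610 (plus strand).
Cldn5: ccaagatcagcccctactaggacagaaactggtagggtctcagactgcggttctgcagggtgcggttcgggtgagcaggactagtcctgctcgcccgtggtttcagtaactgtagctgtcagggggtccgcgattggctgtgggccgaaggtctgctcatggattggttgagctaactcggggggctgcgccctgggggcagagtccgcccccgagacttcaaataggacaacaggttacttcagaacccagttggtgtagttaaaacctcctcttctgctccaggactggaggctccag
Ocln: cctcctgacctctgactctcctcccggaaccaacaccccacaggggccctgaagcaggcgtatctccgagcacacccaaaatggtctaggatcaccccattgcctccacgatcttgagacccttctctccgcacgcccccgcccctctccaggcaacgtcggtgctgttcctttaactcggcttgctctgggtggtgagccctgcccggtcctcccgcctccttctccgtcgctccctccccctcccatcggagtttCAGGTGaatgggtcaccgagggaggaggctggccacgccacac
Marveld2: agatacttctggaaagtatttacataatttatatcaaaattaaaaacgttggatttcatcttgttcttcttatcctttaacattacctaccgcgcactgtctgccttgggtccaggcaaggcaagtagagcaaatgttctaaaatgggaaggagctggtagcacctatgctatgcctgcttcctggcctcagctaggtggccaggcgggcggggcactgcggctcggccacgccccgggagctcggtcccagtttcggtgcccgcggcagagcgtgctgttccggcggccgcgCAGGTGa
Lsr: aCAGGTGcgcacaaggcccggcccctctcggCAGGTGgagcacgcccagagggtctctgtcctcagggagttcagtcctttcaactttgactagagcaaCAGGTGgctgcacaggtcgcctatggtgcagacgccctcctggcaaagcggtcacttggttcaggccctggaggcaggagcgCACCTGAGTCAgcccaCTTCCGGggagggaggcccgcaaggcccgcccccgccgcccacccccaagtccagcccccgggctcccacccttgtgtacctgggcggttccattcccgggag
F11r: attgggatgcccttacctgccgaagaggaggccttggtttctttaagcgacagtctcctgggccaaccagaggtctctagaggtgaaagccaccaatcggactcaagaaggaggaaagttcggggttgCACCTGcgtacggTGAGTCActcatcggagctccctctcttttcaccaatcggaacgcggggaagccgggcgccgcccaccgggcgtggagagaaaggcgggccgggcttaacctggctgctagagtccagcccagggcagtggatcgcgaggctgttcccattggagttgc

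The AP-1 letters were found in the windows of *F11r*, at -109 from the start site, and *Lsr*, at -65, and 7.81% of all 32851 promoter windows hold them. The *Lsr* match overlaps an E-box match at -69. The ETS letters were found in *Lsr*, at -53, and in the windows of *Cldn12*, against 8.86% of all windows. The E-box letters were found in *Ocln*, *Marveld2*, *F11r* and, at 4 places, in *Lsr*, against 20.2% of all windows. The TCF/LEF letters were in none of the 12 windows of the 8 members with an entry, and 3.73% of all windows hold them. Every member window except 1 of *Cldn12* was richer in G and C than the median window (52.7%), with 54.0% to 73.3% of bases. Both the AP-1 and the E-box letters were found among members called lower and among members called higher. Their part in the changes was not tested. *Cldn5*, *Tjp1* and *Cgnl1* held none of the 4 motifs in their windows. The only *Tjp1* window (chr7:65371195-65371494, minus strand) lies inside the counted gene, which runs up to 65527781. The 5′ end of the counted *Tjp1* gene was therefore not scanned. A match is a description of the sequence, not a bound site. *Jam2* had no entry, and the windows of *Cldn12*, *Tjp1* and *Cgnl1* were not printed.

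Mutant ECs had less RNA of 5 of the 9 tight junction genes and more of 2. *Jam2* fell to 38.9% of the Wild type level, *Lsr* to 45.0%, *Cgnl1* to 61.0%, *Ocln* to 65.0% and *Cldn5* to 72.3%, while *Marveld2* rose 1.91-fold and *F11r* 1.40-fold. *Tjp1* and *Cldn12* were not called, *Tjp1* by a narrow margin that the code prefix or the replicate block as a factor closed. The calls are at an adjusted p under 0.05 in edgeR's quasi-likelihood test, adjusted over the 16887 genes tested by the method of Benjamini and Hochberg. Of all those genes 44.4% were called, 22.9% lower and 21.5% higher in Mutant ECs, so many genes outside the tight junction moved as well. The median log2 fold change was -0.47 over the 9 genes and -0.02 over all genes tested. In normalized counts 6 of the 9 genes showed no overlap between the groups, against 42.5% of all genes. *Lsr* and *Jam2* also passed the 2-fold limit that the study set on top of the p-value, which 14.0% of all genes passed, 8.05% lower and 5.90% higher. Each of the 9 differences had the same sign within each of the 3 code prefixes of the sample labels, although 2 of the prefixes hold 1 library per group and no source says whether a prefix marks a litter.

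**Figure D1:**
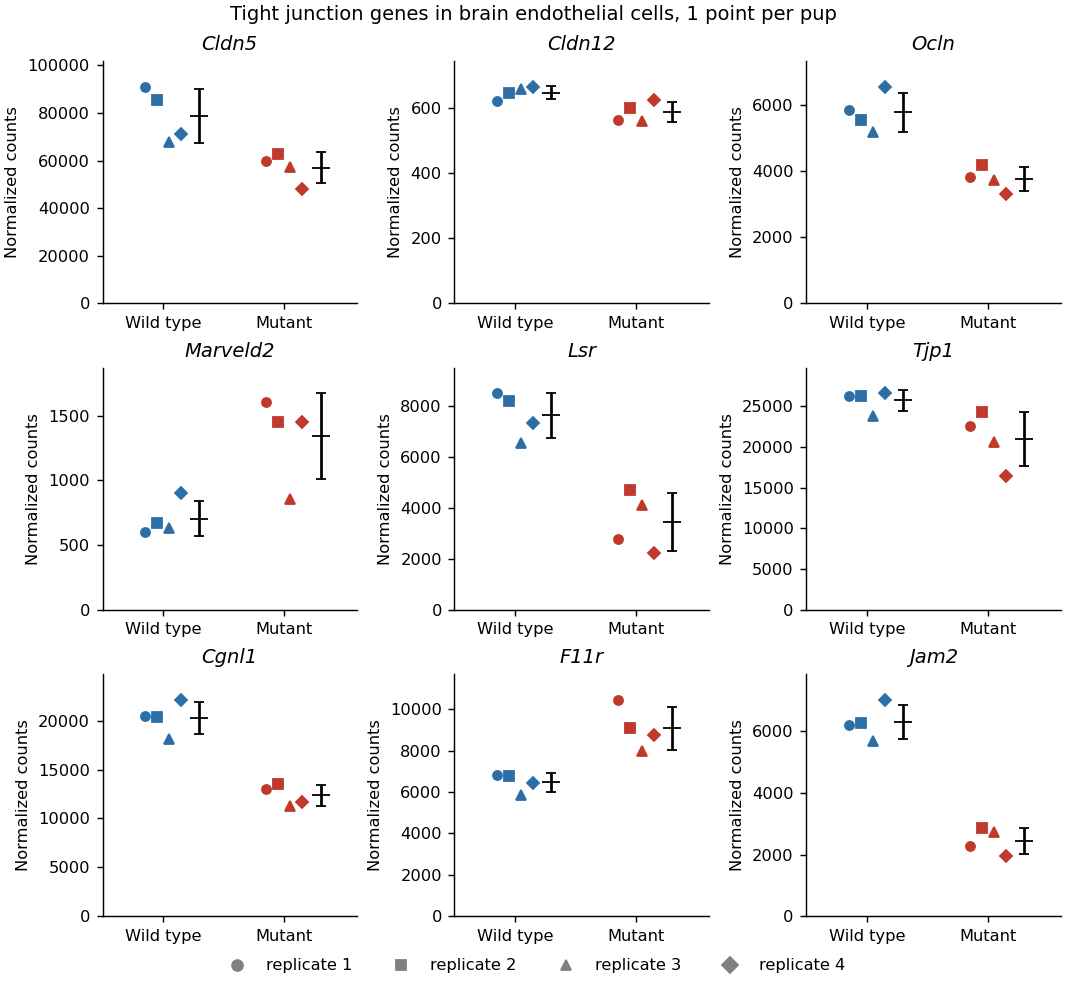
Normalized counts of the 9 tight junction genes, 1 panel per gene with the vertical axis from 0. Each point is 1 pup (blue Wild type, red Mutant, shape for the replicate number) and the bars give the mean ± SD of 4 pups. The groups do not overlap for *Cldn5*, *Ocln*, *Lsr*, *Cgnl1*, *F11r* and *Jam2*.

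Claudins form the strands that close the paracellular space, and claudin-5 is the dominant claudin of brain endothelium, whose loss in mice opens the barrier to small molecules. *Cldn5* is a single-exon gene of 1414 bases on chromosome 16 of GRCm38 (18776847 to 18778260, plus strand). The Mutant libraries 1 to 4 had 59812, 62887, 57175 and 47818 normalized counts, that is counts scaled by TMM to the mean library size. The Wild type libraries 1 to 4 had 90896, 85343, 67578 and 71102. Every Mutant library was below every Wild type library, but the gap between the highest Mutant and the lowest Wild type library was smaller than the spread within the Wild type group. The log2 fold change was -0.47 (standard error, SE, 0.12; adjusted p = 0.0097, edgeR quasi-likelihood test). When the libraries were scaled to 10 EC marker genes in place of TMM, the log2 fold change of *Cldn5* was -0.26 and missed the threshold (adjusted p = 0.0551).

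*Cldn12* encodes an atypical claudin that lacks the usual PDZ-binding end. It lies on chromosome 5 (5489537 to 5514958, minus strand). It had 563, 599, 559 and 622 normalized counts in Mutant and 619, 644, 657 and 663 in Wild type libraries. The groups overlapped at 1 pair of libraries, with Mutant 4 above Wild type 1. The log2 fold change was -0.14 (SE 0.08, edgeR adjusted p = 0.167). Scaling to EC markers, which moved all genes up, put it at 0.07, and counted from the median of all genes it was at -0.115 under both scalings. The difference did not pass the test.

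The MARVEL proteins share a 4-pass membrane domain, occludin along the bicellular contacts and tricellulin at the corners between 3 cells. *Ocln* lies on chromosome 13 (100496507 to 100552718, minus strand) and had 3814, 4186, 3748 and 3302 normalized counts in Mutant and 5859, 5551, 5178 and 6556 in Wild type libraries. All Mutant libraries were below all Wild type libraries, and the log2 fold change was -0.62 (SE 0.09, edgeR adjusted p = 4.88e-04). *Marveld2* lies on the same strand of the same chromosome (100595957 to 100616971), 43238 bases away, with no other gene of the files wholly in between. It had 1611, 1449, 857 and 1448 normalized counts in Mutant and 602, 674, 632 and 902 in Wild type libraries. Mutant 3 fell just below Wild type 4, so the groups overlapped there, and the other Mutant libraries were all above the Wild type libraries. The log2 fold change of *Marveld2* was 0.93 (SE 0.19, edgeR adjusted p = 0.00287), and it was 1.11 without Mutant replicate 3. These chromosomal neighbours thus changed in opposite directions.

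Lipolysis-stimulated lipoprotein receptor, encoded by *Lsr*, is an angulin that recruits tricellulin to the corners between 3 cells and is enriched in brain endothelium. *Lsr* lies on chromosome 7 (30957770 to 30973464, minus strand). It had 2764, 4689, 4099 and 2218 normalized counts in Mutant and 8495, 8191, 6538 and 7339 in Wild type libraries. The groups were well apart, and within the Mutant group replicates 1 and 4 had the lowest levels. The log2 fold change was -1.15 (SE 0.21, edgeR adjusted p = 0.00137), and without Mutant replicate 4 it was -0.96, short of the study's 2-fold limit. The antisense gene *Gm4673* covers 946 of the 2172 exon bases of *Lsr* (43.6%). Whether the counting used the strand is not given in the sources used here, so reads of the pair cannot be told apart with certainty. *Gm4673* had 420, 435, 380 and 312 normalized counts in Mutant and 895, 864, 871 and 943 in Wild type libraries, a log2 fold change of -1.21 (edgeR adjusted p = 2.29e-05). With the counts of both genes summed, an alternative chosen after seeing the data, the log2 fold change was -1.16. *Lsr* and its partner *Marveld2* moved in opposite directions, and the ratio of their levels per length fell from 12.7 to 22.0 in Wild type to 2.38 to 7.45 in Mutant libraries.

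In the cytoplasmic plaque, ZO-1 is the PDZ scaffold that binds claudins, occludin and actin, and paracingulin binds ZO-1 and links the plaque to the cytoskeleton. *Tjp1* lies on chromosome 7 (65296165 to 65527781, minus strand) and had 22562, 24226, 20572 and 16474 normalized counts in Mutant and 26243, 26249, 23775 and 26551 in Wild type libraries. Mutant 2 was above Wild type 3, so the groups overlapped, and Mutant 4 was the lowest of all. The log2 fold change was -0.29 (SE 0.11, edgeR adjusted p = 0.0551), on the edge of the threshold. Under 7 of the 18 alternatives to the analysis *Tjp1* passed it, among them the code prefix as a factor (-0.31, edgeR adjusted p = 0.0233) and the replicate block (-0.31, edgeR adjusted p = 0.0362). Mutant was lower by 0.17, 0.21 and 0.69 in log2 CPM within the 3 prefixes, and with scaling to EC markers the log2 fold change was -0.09. Leaving out 1 library at a time gave log2 fold changes from -0.37 to -0.17. *Cgnl1*, on chromosome 9 (71626509 to 71771602, minus strand), had 13006, 13490, 11267 and 11707 normalized counts in Mutant and 20464, 20413, 18090 and 22144 in Wild type libraries. All Mutant libraries lay below all Wild type libraries, with a coefficient of variation of 8.50% in Mutant and 8.21% in Wild type ECs, so the *Cgnl1* values were tight. Its log2 fold change was -0.71 (SE 0.09, edgeR adjusted p = 1.50e-04).

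Junctional adhesion molecules are immunoglobulin-like receptors that bind across the contact, recruit the polarity complex and serve as docking sites for leukocytes. *F11r* lies on chromosome 1 (171437535 to 171464603, plus strand) and had 10446, 9080, 7991 and 8773 normalized counts in Mutant and 6822, 6757, 5828 and 6439 in Wild type libraries. Even the lowest Mutant library exceeded the highest Wild type library, with a log2 fold change of 0.49 (SE 0.09, edgeR adjusted p = 0.00176). Platelets also express *F11r*, and the summed platelet genes were at 8.27 to 15.8 CPM in Mutant and 8.35 to 11.4 CPM in Wild type libraries. Their part in the *F11r* level was not tested. *Jam2*, on chromosome 16 (84774123 to 84825928, plus strand), had 2265, 2861, 2734 and 1948 normalized counts in Mutant and 6205, 6272, 5676 and 7023 in Wild type libraries. The groups were far apart, with the highest Mutant library well below the lowest Wild type library. The log2 fold change of *Jam2* was -1.36 (SE 0.12, edgeR adjusted p = 2.28e-05).

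**Figure D2:**
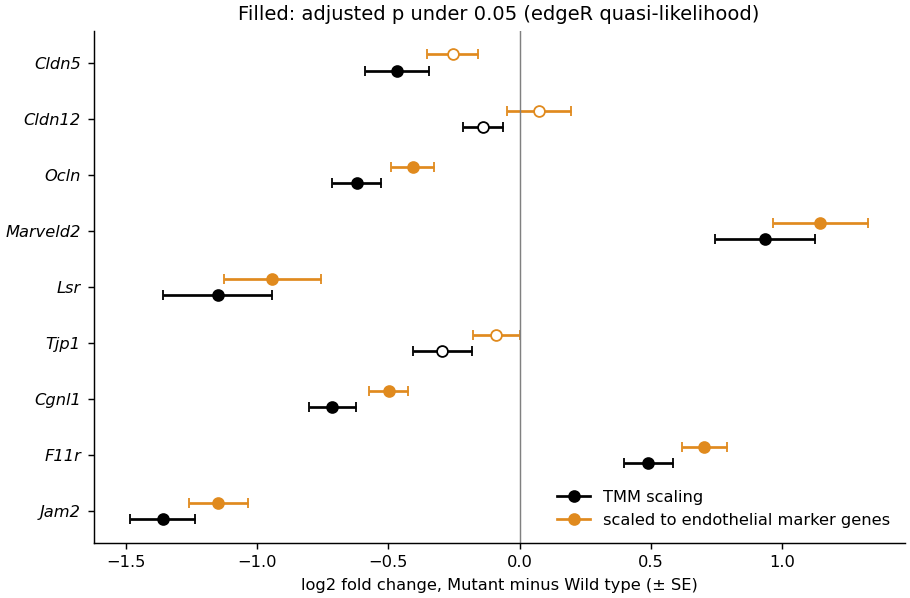
Log2 fold change (Mutant minus Wild type) of each of the 9 genes with its standard error, after TMM scaling (black) and after scaling to 10 EC marker genes (orange). Filled points passed an adjusted p of 0.05. *Cldn5* lost its call with EC marker scaling, *Cldn12* crossed 0 as all genes moved up, and *Jam2* (-1.36) and *Lsr* (-1.15) had the lowest values under TMM.

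The EC marker list was used for scaling without *Cdh5*, whose promoter drives the Cre. Scaling to these genes asks how the junction genes changed relative to them. It moved the median log2 fold change of all genes from -0.02 to 0.19 and the 9 genes with it, to -1.15 for *Jam2*, -0.94 for *Lsr*, -0.50 for *Cgnl1*, -0.41 for *Ocln*, 0.70 for *F11r* and 1.14 for *Marveld2*, counted from 0. Counted from the median of all genes, *Jam2* was at -1.34 under both scalings, *Cldn5* at -0.44 and *F11r* at 0.51. With EC marker scaling 4 genes were called lower and 2 higher, against 12.1% and 30.7% of all genes. The genes past 2-fold were then *Jam2* and *Marveld2*, and no longer *Lsr*. The markers used were not constant themselves. After TMM scaling *Kdr* (log2 fold change -0.59), *Ptprb* (-0.77), *Tek* (-0.44) and *Eng* (-0.42) were called lower. *Pecam1* (0.53) and *Emcn* (0.82) were called higher, as was *Cdh5* (1.11), which was left out. The summed level of the list with *Cdh5* overlapped between the groups. How far the shift rests on this choice of markers was not tested.

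Levels of different genes were compared as RPKM, that is counts divided by exon length and by the TMM-scaled library size. *Cldn5* towered over the rest, with 1876 RPKM in Wild type and 1356 in Mutant ECs, and took 79.1% ± 1.80 (SD, n = 4) of the summed RPKM of the 9 genes in Wild type and 78.4% ± 0.516 (SD, n = 4) in Mutant ECs. In Wild type ECs *Lsr* (119 RPKM) and *Tjp1* (111) followed, with overlapping ranges, then *Cgnl1* (87.1) and *F11r* (81.8), also overlapping, then *Ocln* (46.2), *Jam2* (36.1), *Marveld2* (7.0) and *Cldn12* (5.15), each apart from the next over the 4 libraries. In Mutant ECs *F11r* (115 RPKM) was second after *Cldn5* in all 4 libraries, followed by *Tjp1* (90.4), *Lsr* (53.4) and *Cgnl1* (53.1), *Ocln* (30.02), *Jam2* (14.1) and *Marveld2* (13.4), and *Cldn12* (4.67). From *F11r* down to *Cgnl1* each range overlapped with the next, as did those of *Jam2* and *Marveld2*. By mean RPKM *F11r* thus moved from rank 5 to rank 2, and *Lsr* from rank 2 to rank 4. The *Lsr* level also rests on how reads on the bases shared with *Gm4673* were counted, which is not given.

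**Figure D3:**
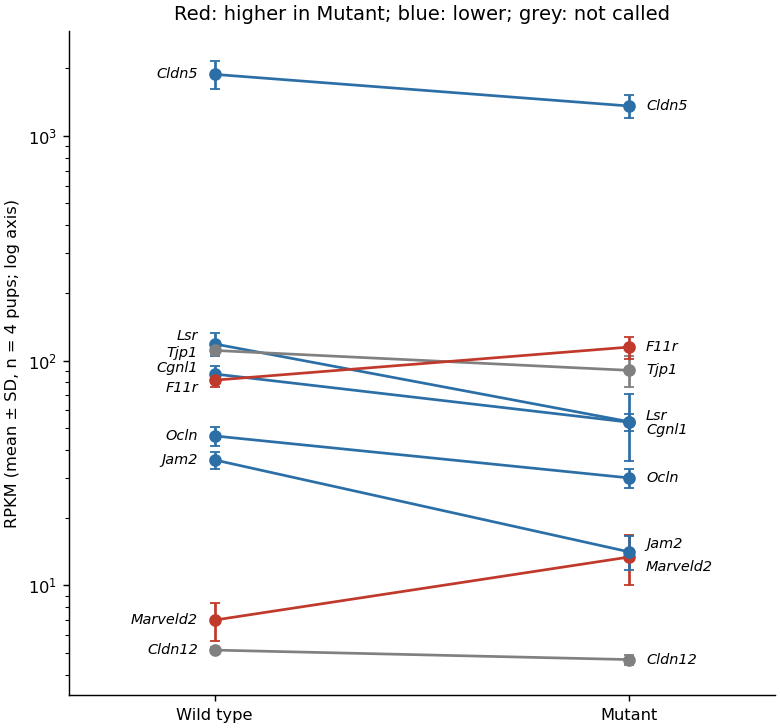
RPKM of the 9 genes in Wild type and Mutant ECs on a log axis, as mean ± SD of 4 pups. Red lines are genes called higher in Mutant, blue lines genes called lower and grey lines genes not called. *Cldn5* (1876 and 1356 RPKM) lies above the others in both groups, and *F11r* crosses *Tjp1*, *Lsr* and *Cgnl1*.

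Ratios of members within a library do not depend on the scaling between libraries. *F11r* had 2.42, 2.38, 2.26 and 2.02 times the RPKM of *Jam2* in Wild type libraries 1 to 4. In Mutant libraries 1 to 4 the ratio was 10.2, 7.0, 6.45 and 9.93, with no overlap. *Ocln* had 7.79, 6.60, 6.56 and 5.82 times the RPKM of *Marveld2* in Wild type libraries and 1.90, 2.32, 3.50 and 1.83 times in Mutant libraries. For both pairs of genes the RNA ratio in every Mutant library lay outside the Wild type range. Each pair joins a gene called higher with a gene called lower, so the ratios restate those changes. The ratio of *Tjp1* to *Cgnl1* was 1.28 ± 0.0499 (SD, n = 4) in Wild type and 1.70 ± 0.194 (SD, n = 4) in Mutant libraries. The ratio of *Cldn5* to *Tjp1*, in contrast, overlapped between the groups, at 16.9 ± 2.00 (SD, n = 4) in Wild type and 15.1 ± 0.758 (SD, n = 4) in Mutant libraries. So did that of *Cldn5* to *Ocln*, at 40.9 ± 6.60 (SD, n = 4) and 45.1 ± 1.49 (SD, n = 4).

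**Figure D4:**
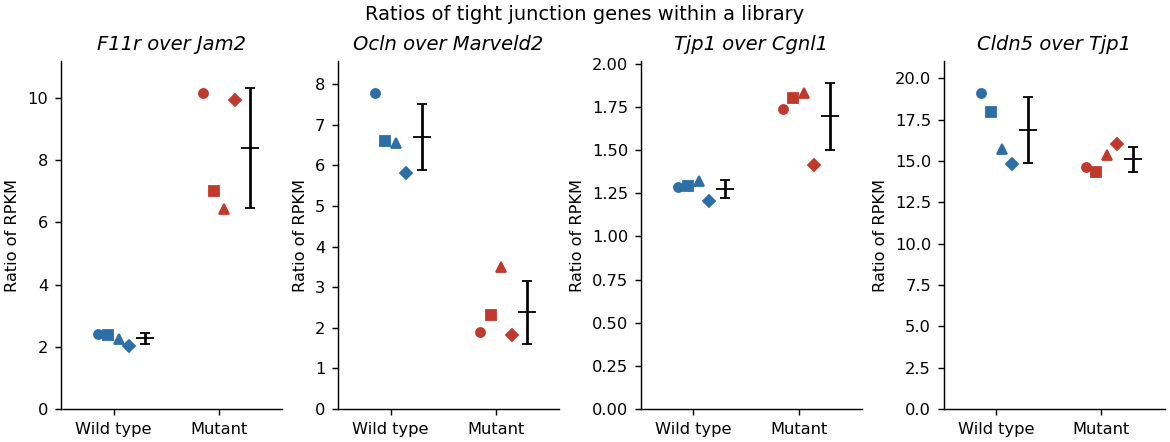
Ratios of RPKM between pairs of tight junction genes, 1 point per library, with the mean ± SD of 4 pups and the vertical axis from 0. Mutant libraries stand apart from Wild type libraries for *F11r* over *Jam2*, *Ocln* over *Marveld2* and *Tjp1* over *Cgnl1*, and overlap with them for *Cldn5* over *Tjp1*.

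A list of 58 other tight junction genes placed the 9 members in their pathway. Of these, 43 passed the filter on low counts, 9 were called higher and 13 lower in Mutant ECs, and 21 were not called, with a median log2 fold change of -0.29, where 21.5% of all genes were higher, 22.9% lower and 44.4% called. With scaling to EC markers 13 were called higher and 7 lower, where 30.7% of all genes were higher and 12.1% lower. The counts by role below stand against the same shares, and with so few genes in a role they single out none. Among the other claudins and *Cldnd1*, 10 of 22 genes were tested, 3 were higher and 1 lower. *Cldn6*, a claudin of embryonic epithelia, rose from 35.3 ± 6.84 to 105 ± 18.1 normalized counts (SD, n = 4), with a log2 fold change of 1.57 (SE 0.21, edgeR adjusted p = 2.34e-04). *Cldn4*, an epithelial claudin, rose from 13.8 ± 3.80 to 43.9 ± 24.7 (SD, n = 4), or by a log2 fold change of 1.68 (edgeR adjusted p = 0.00785), with 18 to 90 reads per Mutant library. *Cldn11*, a claudin of myelin and of the arachnoid barrier, fell with a log2 fold change of -1.20 (edgeR adjusted p = 0.00662), from 405 ± 132 to 176 ± 58.7 normalized counts (SD, n = 4), with overlapping groups. All 7 oligodendrocyte markers, *Mbp* (log2 fold change -2.45) among them, were also called lower, and their part in the *Cldn11* result was not tested. *Cldn6* and *Cldn11* were both low beside *Cldn5*, with *Cldn6* at 2.35 and *Cldn11* at 3.18 RPKM in Mutant ECs. *Cldnd1*, a claudin-domain gene with the highest RPKM of that list, was not called (log2 fold change 0.17, edgeR adjusted p = 0.103), although it was called higher with EC marker scaling (0.38, edgeR adjusted p = 0.0135) and without Mutant replicate 3 (0.24, edgeR adjusted p = 0.017).

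Of the remaining genes of the bicellular and tricellular membrane, *Ildr2*, an angulin-family gene like *Lsr*, fell from 7866 ± 983 to 2112 ± 939 normalized counts (SD, n = 4), or by a log2 fold change of -1.90 (SE 0.27, edgeR adjusted p = 3.62e-04). *Marveld3* and *Ildr1* were too low to test. *Igsf5*, which encodes JAM-4, fell from 873 ± 75.0 to 241 ± 74.2 (SD, n = 4), or by a log2 fold change of -1.86 (edgeR adjusted p = 5.66e-05). In both genes every Mutant library was below every Wild type library. Of the 5 immunoglobulin-like adhesion genes tested 2 were lower and 3 not called. *Esam*, an endothelial adhesion molecule of tight junctions with the highest RPKM of all 58 genes (237 in Wild type and 210 in Mutant ECs), was not called, at a log2 fold change of -0.18 (edgeR adjusted p = 0.108). This call depended on the scaling: *Esam* was at 0.04 with EC markers, and was called lower with upper quartile scaling (-0.24, edgeR adjusted p = 0.0181) and with the library size alone (-0.23, edgeR adjusted p = 0.0152).

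Among 12 plaque scaffold genes 2 were higher, 3 lower and 7 not called. *Amotl2*, an angiomotin that links junctions to actin and Hippo signalling, fell from 7338 ± 913 to 2548 ± 766 normalized counts (SD, n = 4), or by a log2 fold change of -1.53 (SE 0.18, edgeR adjusted p = 1.26e-04). Of 10 polarity genes tested 2 were higher and 4 lower. *Pard6g*, of the Par complex that JAM-A recruits, fell with a log2 fold change of -1.03 (SE 0.15, edgeR adjusted p = 3.24e-04). *Prkcz*, an atypical protein kinase C of the same complex, fell from 94.0 to 31.3 normalized counts (log2 fold change -1.58). *Prkcz* was low, at 0.50 RPKM in Wild type and 0.17 in Mutant ECs, with 21 to 41 reads per Mutant library. *Prkci*, of the same list, was at 10.6 and 9.48 RPKM and was not called (log2 fold change -0.16, edgeR adjusted p = 0.0639). *Mpp5*, the polarity gene of highest RPKM averaged over both groups (*Lin7c* was higher in Mutant ECs, at 17.7 against 17.5 RPKM), was not called (log2 fold change 0.12, edgeR adjusted p = 0.445). Of 5 plaque signalling genes 2 were higher and 2 lower. *Ybx3*, whose product ZONAB binds ZO-1 and acts on transcription, rose from 6111 ± 301 to 9232 ± 705 normalized counts (SD, n = 4), or by a log2 fold change of 0.60 (SE 0.08, edgeR adjusted p = 1.68e-04).

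**Figure D5:**
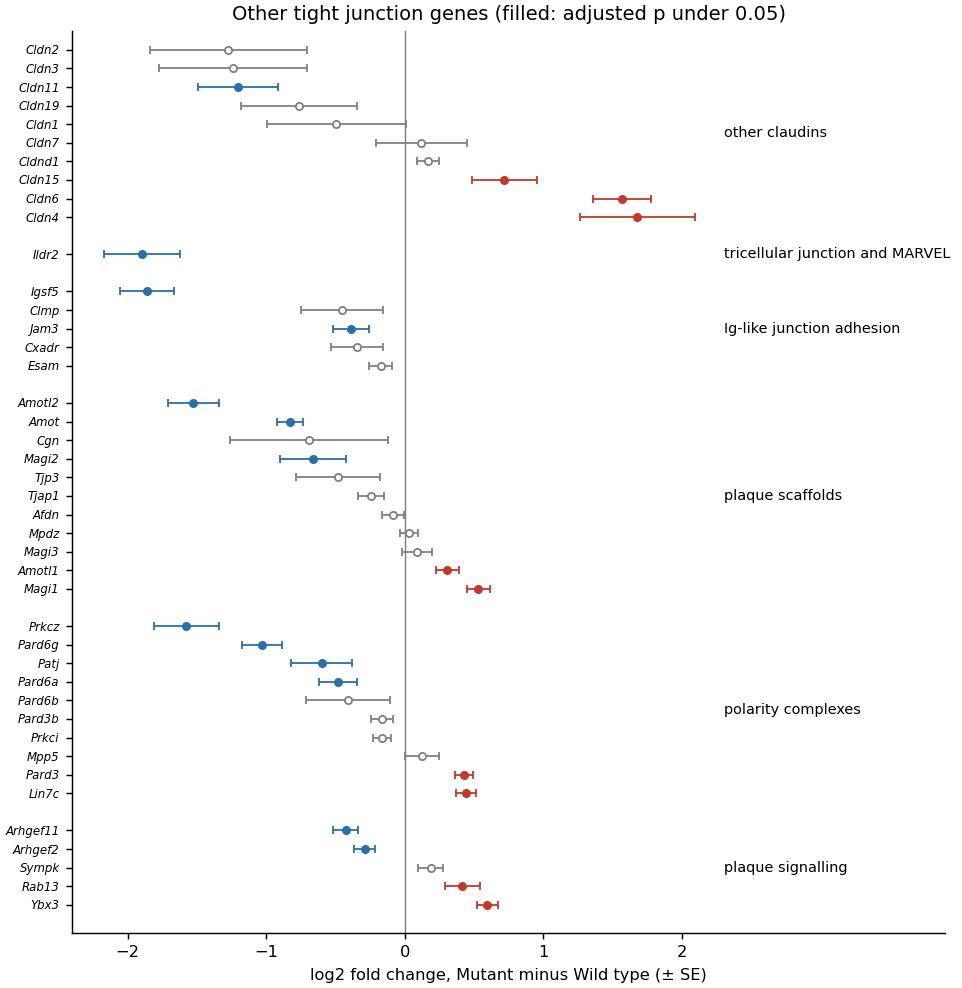
Log2 fold change (Mutant minus Wild type) with standard error of 42 of the 43 other tight junction genes tested, grouped by role. Filled points passed an adjusted p of 0.05 (red higher, 9 genes; blue lower, 13 genes) and open grey points did not.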

How the data were processed

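RNA sequencing was analysed from brain ECs of 4 Mutant and 4 Wild type pups. The authors used Trimmomatic for trimming and STAR for mapping to GRCm38, and deposited unnormalized counts per gene; the counting program, annotation release and use of strand are not given in the sources used here. A second deposited set, normalized with DESeq2, was not used here. Of 49315 genes 48970 matched a symbol (GENCODE vM21), and promoter windows were those of RefSeq (GRCm38.p6).

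Counts were scaled by TMM, filtered with filterByExpr (minimum count 10) and compared with glmQLFit and glmQLFTest on all 16887 genes passing the filter, with Benjamini-Hochberg adjustment (R 4.3.3, edgeR 4.0.16). The SE given with edgeR values is the absolute log2 fold change divided by the square root of the quasi-likelihood F statistic. Likeness between genes was the root mean square distance of centred log2 CPM profiles (prior count 2). The code was tested on simulated data. Libraries of a group differed by more than sampling noise, with a chi-square per degree of freedom of 7.30 or more, and were kept separate. Members held 445 to 98684 reads per library, so counting error was small beside the spread between pups for abundant members, but not for *Cldn12*.

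The members and lists were chosen with earlier results of these data known. Named were all members, Map2k1, the listed pathway genes past the study's limit, the gene of highest RPKM in each list, and for *Cldn5*, *Ocln* and *Tjp1* the 3 nearest genes. Some genes that this rule names are not reported here. Other genes named were chosen after their values were seen. Alternatives were DESeq2 1.42.0, limma 3.58.1 voom, other scalings and filters, the replicate number or code prefix as a block, and each library left out.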

Additional observations from a re-analysis of the deposited data

Results flagged for a closer look

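*Tjp1* in Wild type 3 had 23775 normalized counts, while the other Wild type libraries lay between 26243 and 26551, and *Esam* in the same library had 18298 against 20673 to 21072. Both were far from the other libraries of their group by Dixon's test (gap over range 0.889 and 0.856). The test was made on 42 groups of values (21 genes), of which chance alone marks about 5%, and it marked these 2. Wild type 3 was also the lowest Wild type library for 7 of the 9 tight junction genes. Without Wild type replicate 3 the count of members called stayed at 5 lower and 2 higher.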

How the results depend on the processing

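Over 18 alternatives, 2 members were called higher in each, and between 4 and 6 were called lower. The number past 2-fold was 1 to 3 with 1 library left out, being 1 without Mutant replicate 4 and 3 without Mutant replicate 3 or Wild type replicate 4. The calls of *Ocln*, *Marveld2*, *Lsr*, *Cgnl1*, *F11r* and *Jam2* held in every alternative run. With scaling to EC markers *Cldn5* was no longer called (-0.26), *Cldn12* (0.0737) and *Esam* (0.0366) crossed 0 as all genes moved up, *Lsr* gave way to *Marveld2* among those past 2-fold, and the number of other tight junction genes called lower was 7. That number was 17 with upper quartile scaling and with the library size alone, 9 without the filter on low counts, and 10 to 13 with 1 library left out. The cause was not tested. Same-numbered Mutant and Wild type libraries deviated together with correlations of 0.16, 0.12, 0.16 and -0.02 over the 2000 most variable genes, so the numbers were not taken to pair the pups. Mutant 2 and 4 did not correlate best with their own number. This check does not address litters. The paper matched controls to Mutant pups in number within each litter, and the main fit left that matching out. The SE of *Cldn5* was 0.12 in the main fit and 0.07 with the code prefix as a factor, where 6 members were called lower. With the replicate block, 6 members were lower, *Tjp1* (-0.31, adjusted p = 0.0362, edgeR quasi-likelihood test) being added, and 10 other genes were higher and 15 lower. Depth limits low genes such as *Cldn4*, which the filter of 1 CPM in 4 libraries removed.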

Other observations

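Over the 8 libraries, the centred log2 CPM profile nearest to that of *Cldn5* was that of *Adgra2*, at a root mean square distance of 0.0343, followed by *Rras* (0.0393) and *B4gat1* (0.0404), where the median distance over all genes tested was 0.409. Nearest to *Ocln* were *Cdkn1c* (0.0433), *Snx18* (0.0531) and *Brd9* (0.0538), against a median of 0.440. Nearest to *Tjp1* were *Plekhg1* (0.0439) and, at rank 3, *Tbc1d5* (0.0540), against a median of 0.371. Their log2 fold changes were close to those of the genes they were matched to, as the measure requires, with *Adgra2* at -0.47, *Cdkn1c* at -0.65 and *Plekhg1* at -0.30.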
